A study of Mus musculus with 6 samples.

Results

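The gene segments that encode T cell receptor chains were followed in iNKT1 cells of the thymus, which are invariant natural killer T (iNKT) cells expressing T-bet, with and without targeting of the TGF-beta receptor gene Tgfbr2. The members were the rows of the deposited table whose symbol begins with Tra, Trb, Trg or Trd followed by v, j, d or c. That pattern hit 82 symbols, and 81 of them were kept, out of 17985 genes in all. The symbol left out was Tradd, a protein-coding gene with no receptor annotation. The biotype in the table begins with TR_ for 10 of the 81 and with IG_, an older label for the same kind of segment, for 69. The other two, Trav9n-1 and Trav13n-3, are receptor segments in GENCODE release M21. The members were 26 Trav, 15 Traj, 1 Trac, 18 Trbv, 2 Trbd, 14 Trbj, 2 Trbc and 3 gamma chain segments, with no delta chain segment among them. Another 13 rows annotated as receptor genes do not match the pattern: 10 are gamma chain genes under other names, described with the gamma members, and 3 are beta V pseudogenes without a symbol, not analysed here.

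The control mice (Ctrl) carried Tbx21CreTg and Rosa26-LSL-YFP+/+, and the conditional knockout mice (cKO) carried these and Tgfbr2F/F, on the C57BL/6 background in each group and with no treatment. Each group had 3 libraries of thymic iNKT1 cells; neither the age nor the sex of the mice is given in the labels. The Cre acts in cells that express Tbx21, which encodes T-bet, and the reporter marks cells in which it has acted. The replicates are given as independent, with no word on how many mice made up each, so p-values measure the spread between these libraries. Values are CPM, the reads of a gene as a share of all reads of the library, scaled to a common total.

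A T cell receptor chain is assembled in the thymus by joining 1 V segment to a J segment, with a D segment between them in beta and delta chains, and the joined exon is spliced to a constant gene. In mouse iNKT cells nearly every receptor carries the same alpha chain, a Trav11 segment joined to Traj18, which pairs with beta chains that use mainly the Trbv13 family, Trbv29 and Trbv1. This semi-invariant receptor binds lipids presented by CD1d. Joining on an allele removes the DNA between the chosen V and J segments, and J segments farther downstream stay in the intron before the constant gene.

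The invariant alpha chain is shown by its segments. The V exon of Trav11 (chr14:53519569-53519859, plus strand, GRCm38, exon 2) is printed whole in lower case, followed by the exons of Traj18 (chr14:54200777-54200842) and of Traj17 (chr14:54201775-54201837), the next joining segment downstream and the second highest here. Capitals in the joining segments mark the codons of the Phe-Gly-X-Gly motif typical of functional J segments.
Trav11: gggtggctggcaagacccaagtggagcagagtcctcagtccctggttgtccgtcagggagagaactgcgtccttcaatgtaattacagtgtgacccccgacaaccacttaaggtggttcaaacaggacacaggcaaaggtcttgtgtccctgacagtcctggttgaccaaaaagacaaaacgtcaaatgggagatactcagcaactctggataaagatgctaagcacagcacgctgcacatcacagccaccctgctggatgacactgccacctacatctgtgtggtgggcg
Traj18: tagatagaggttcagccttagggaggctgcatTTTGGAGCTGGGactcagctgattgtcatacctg
Traj17: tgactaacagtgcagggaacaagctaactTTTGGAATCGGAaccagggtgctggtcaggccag
Trav11 itself was not analysed here, nor was Trav11d, a duplicate of it on the same chromosome. Over the 342 bases compared, the annotated transcripts of Trav11 and Trav11d are identical at 342. None of the 269 stretches of 75 bases, the read length, in Trav11 is found in this gene alone among the annotated receptor genes. Uniqueness and the presence of a value did not go together strictly. Of the 128 annotated Trav genes, the 26 with values had a median of 77.7% of such stretches unique and the other 102 a median of 26.5%, with no unique stretch in 39 and only unique ones in 14 of these. Trav14d-1, with no unique stretch, had a value, and Trav11n, with 98.9% unique, was among the 102. All 35 annotated Trbv genes are unique in every stretch, also the 15 without a value under their M21 gene identifier. Trbv4 is counted among these 15, although it had values here under another identifier. Why a segment has no value was not tested. The invariant alpha chain was followed here only through Traj18 and the constant gene Trac.

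The Trbv13 segments are shown because they led beta chain V usage and because their likeness bears on how reads are assigned. The V exons lie at chr6:41116175-41116468 (Trbv13-1), chr6:41121539-41121832 (Trbv13-2) and chr6:41130292-41130585 (Trbv13-3), all on the plus strand of GRCm38. Capitals in Trbv13-1 and Trbv13-3 mark bases that differ from Trbv13-2, and capitals in Trbv13-2 mark bases at which it differs from both.
Trbv13-1: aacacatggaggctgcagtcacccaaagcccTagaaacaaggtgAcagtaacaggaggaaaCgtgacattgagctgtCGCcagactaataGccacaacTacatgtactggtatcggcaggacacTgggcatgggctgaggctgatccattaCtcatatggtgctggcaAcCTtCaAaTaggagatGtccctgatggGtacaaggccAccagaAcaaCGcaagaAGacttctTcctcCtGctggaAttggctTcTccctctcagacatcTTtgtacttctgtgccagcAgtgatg
Trbv13-2: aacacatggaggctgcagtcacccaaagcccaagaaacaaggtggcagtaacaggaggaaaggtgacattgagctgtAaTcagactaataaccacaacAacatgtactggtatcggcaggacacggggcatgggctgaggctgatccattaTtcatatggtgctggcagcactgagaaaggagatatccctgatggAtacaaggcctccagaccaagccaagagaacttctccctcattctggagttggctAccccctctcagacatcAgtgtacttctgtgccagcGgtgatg
Trbv13-3: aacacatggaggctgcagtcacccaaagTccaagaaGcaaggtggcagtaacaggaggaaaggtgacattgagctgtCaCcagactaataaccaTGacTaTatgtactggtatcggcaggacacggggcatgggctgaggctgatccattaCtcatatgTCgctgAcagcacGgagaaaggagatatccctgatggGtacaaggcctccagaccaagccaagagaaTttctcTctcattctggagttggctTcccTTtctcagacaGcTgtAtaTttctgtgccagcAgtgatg
Over 294 bases, Trbv13-2 was identical to Trbv13-3 at 270 (91.84%) and to Trbv13-1 at 261 (88.78%). The longest identical stretch between any 2 of the 3 was 50 bases, shorter than a read.

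The libraries held 28832779 to 68092478 reads, so that 1 read was worth 0.0147 to 0.0347 CPM. Both replicate 3 libraries stand apart from the others: 4406 (Ctrl) and 4590 (cKO) genes were at 0 in them, against 0 to 5 genes in each of the other 4. These replicate 3 libraries also held the most reads, 52952416 in Ctrl and 68092478 in cKO. No receptor segment was at 0 in any library. Tgfbr2, the targeted gene, read 461, 461 and 425 CPM in the Ctrl libraries and 289.8, 257.6 and 274 CPM in the cKO libraries, a log2 fold change of -0.71 (SE 0.083, limma adjusted p = 0.0207). All 6 markers of iNKT1 cells were read, with a summed level of 3850 to 5363 CPM in Ctrl and 4572 to 6624 CPM in cKO, most of it from Il2rb. Klrb1c was uneven, at 566, 180 and 703 CPM in Ctrl and at 640, 870 and 1021 CPM in cKO. Ifng was at 33.2 to 37.1 CPM in Ctrl and 41.9 to 55.1 CPM in cKO. Neither passed with or without the block. Xcl1, a chemokine gene of this list, fell from 181.1 ± 26.6 to 91.5 ± 6.51 CPM (SD, n = 3; log2 fold change -0.97, limma adjusted p = 0.0281), and Il2rb was at 2925 ± 583 CPM in Ctrl against 3705 ± 721 CPM for cKO (SD, n = 3), passing as higher only with the block (limma adjusted p = 0.0166, and 0.99998 without it). Values were read for 5 of 7 markers of double-positive thymocytes, whose sum was 10.4 to 22.2 CPM in Ctrl and 11.7 to 23.7 CPM in cKO. Of 6 B cell markers 4 had values, and Ighm gave nearly all of the sum of 351.8 to 388.3 CPM in Ctrl and 361.9 to 457.2 CPM in cKO. Cd79a stayed at 1.53 to 2.91 CPM and Cd79b at 0.428 to 1.81 CPM. Ms4a1 varied more, at 7.52, 4.35 and 0.0378 CPM in Ctrl and at 9.47, 5.16 and 0.191 CPM in cKO. Of 5 myeloid markers 3 had values, with a sum of at most 8.56 CPM, and Csf1r was at 0 in both replicate 3 libraries.

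No receptor segment of the 75 tested passed a limma adjusted p of 0.05 between cKO and Ctrl, whereas 104 of 15691 genes did (0.663%). With the replicate number as a block no member passed either, while the count over all genes was 451 (2.87%). At an unadjusted p under 0.05 there was 1 member, Trbc1 (6.02% of all tested genes), and with the block there were 5: Trbc1, Trbc2, Trbv13-2, Traj20 and Trav3-1 (12.6% of all tested genes). On the recovered reads, edgeR's quasi-likelihood test and DESeq2 called 0 members, beside 41 and 554 of the 15691 genes. DESeq2 gave only 32 members an adjusted p. At an unadjusted p under 0.05 there were 0 and 2 members, beside 853 and 1386 of all tested genes. In the authors' deposited table the smallest adjusted p among the members was 0.99998, while 144 of its 17985 genes were under 0.05. The remaining 6 members, all Trav, had a mean under 1 CPM and were not tested.

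Of the 75 tested members 39 had a higher and 36 a lower mean log2 level in cKO. Over all 15691 tested genes 6426 were higher (41.0%) and 9265 lower. The median log2 fold change of the members was 0.0037, beside -0.04 over all tested genes. The values of cKO and Ctrl libraries did not overlap for 8 members, against 11% of all tested genes. In 6 of these 8 the cKO libraries were higher (3.89% of all genes): Trbc1, Trbv1, Trbv13-2, Trbv13-3, Trbv16 and, by less than the worth of a single read, Trbv5. In the other two, Trav3-1 and Trbj2-2, they were lower (7.1% of all genes). The classes differed in direction: 14 of 18 Trbv were higher in cKO, 10 of 14 Trbj were lower, and all 3 gamma segments were lower (2 of 3 without cKO replicate 1). Of the Traj, 9 of 15 were lower, near the share over all tested genes. The Trbv and gamma directions were seen under each scaling tried, whereas in replicates 1 and 2 alone 13 of 14 Trbj and 8 of 15 Traj were higher.

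**Figure D1:**
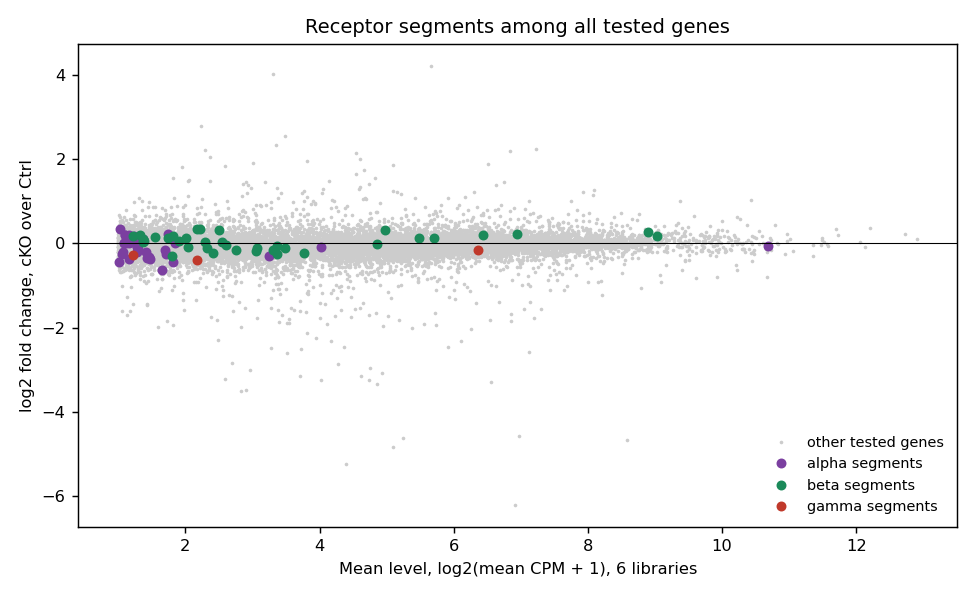
Log2 fold change of cKO over Ctrl (vertical axis, on log2(CPM + 1)) against the mean level of each tested gene (horizontal axis, log2 of mean CPM + 1). Grey points are other tested genes and coloured points are the 75 tested receptor segments, which lie between -0.62 and 0.35 on the vertical axis.

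The alpha constant gene Trac (ENSMUSG00000076928, chromosome 14, 54220521 to 54223097) was the member with the most reads. It was at 1591, 1565 and 1875 CPM in Ctrl and at 1351, 1506 and 2017 CPM in cKO. The cKO libraries were both the lowest and the highest of the 6, so the groups overlapped. The Ctrl mean was 1677 ± 172 CPM and the cKO mean 1625 ± 348 CPM (SD, n = 3), and the log2 fold change was -0.06 with a 95% interval of -0.45 to 0.32 (limma adjusted p = 0.99998). Its sign was positive under edgeR and DESeq2 without the block. In bulk libraries such as these, fewer cells with a transcript and less of it per cell cannot be told apart.

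Of the 60 annotated joining segments of the alpha locus, 15 had values here. Traj18 (ENSMUSG00000076911), the joining segment of the invariant alpha chain, was the highest of these 15 in every library. It was at 14.7, 15.0 and 17.8 CPM in Ctrl and at 14.8, 14.9 and 14.6 CPM in cKO. The 3 cKO values were nearly equal and lay within or just under the Ctrl range. The log2 fold change was -0.09 (95% interval -0.42 to 0.23, limma adjusted p = 0.99998), -0.00873 without Ctrl replicate 3 and -0.14 without Ctrl replicate 1. Per 100 Trac reads there were 0.923, 0.959 and 0.951 Traj18 reads in Ctrl and 1.096, 0.987 and 0.723 in cKO, again with overlap.

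Per kilobase of exon, Traj18 stood at 231.8 CPM and Traj17, which lies 998 bases downstream, at 135.1 CPM, as means over 6 libraries. Their ranges, 221 to 270.1 and 88.1 to 172.8 CPM per kilobase, did not overlap. Traj20 came next at 43.4 CPM per kilobase, with a range of 22.0 to 62.2 that was below that of Traj17 but overlapped those of its followers Traj12 (38.6) and Traj14 (33.9). These exons are 33 to 66 bases long, shorter than a read, so levels per kilobase are compared only within the joining segments.

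Traj18 took 34.1 ± 2.79% of the reads of the 15 listed Traj segments in Ctrl and 37.1 ± 6.61% in cKO (SD, n = 3; exact two-sided permutation p = 0.7, adjusted p = 0.889 over 10 tests of summed values and shares). With 3 libraries against 3 the smallest p this test can give is 0.1. Traj18 and Traj17 together took 54.3 ± 0.708% in Ctrl and 55.5 ± 4.93% in cKO. The 6 listed segments upstream of Traj18, which a Trav11 to Traj18 joint removes from its allele, summed to 10.6 ± 1.51 CPM in Ctrl and 8.77 ± 1.85 CPM in cKO. The 7 listed segments downstream of Traj17 summed to 10.6 ± 0.157 CPM in Ctrl and 9.55 ± 3.6 CPM in cKO. Single segments other than Traj18 and Traj17 had means from 1.10 to 2.52 CPM on either side.

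**Figure D2:**
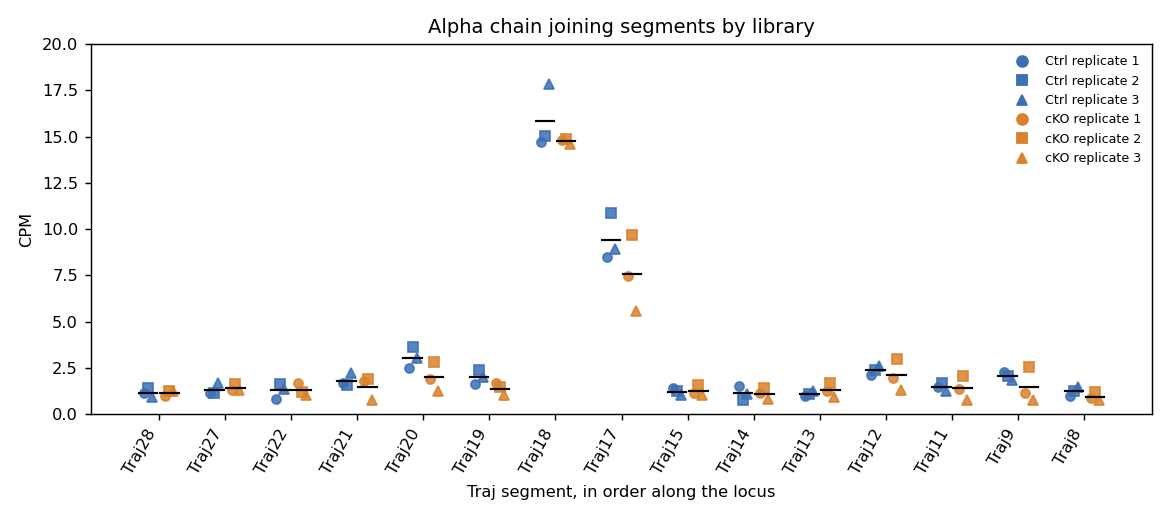
CPM (vertical axis) of the 15 alpha joining segments with values, in their order along the locus (horizontal axis). Points are libraries, blue for Ctrl and orange for cKO with a shape per replicate, and black bars are means of 3 libraries; Traj18 and Traj17 stand above the others in every library.

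Traj17 was at 8.50, 10.9 and 8.91 CPM in Ctrl and at 7.49, 9.71 and 5.55 CPM in cKO, with a log2 fold change of -0.30 (95% interval -0.88 to 0.27, limma adjusted p = 0.99998), -0.12 without cKO replicate 3 and -0.48 without cKO replicate 2. Traj20 was at 2.5, 3.61 and 3.02 CPM in Ctrl and at 1.91, 2.81 and 1.28 CPM in cKO. In each of these cKO replicate 3 was the lowest of the 6 libraries, and every replicate pair was lower in cKO. Traj12 and Traj9, with means of 2.24 and 1.77 CPM, also had their lowest value in cKO replicate 3, at 1.32 and 0.778 CPM.

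The Trav segments with values were all low, with means from 0.523 to 2.60 CPM and a summed level of 36.9 ± 0.977 CPM (Ctrl) and 34.1 ± 2.27 CPM (cKO; SD, n = 3). Summed per 100 Trac reads they gave 2.21 ± 0.170 reads in Ctrl and 2.18 ± 0.561 in cKO. Of the 20 tested, 11 were higher and 9 lower in cKO, beside 41.0% higher over all tested genes. Some segments varied mainly between replicates. Trav6-1 was at 2.65, 2.96 and 0.359 CPM in Ctrl and at 3.95, 3.71 and 0.323 CPM in cKO, so both replicate 3 libraries were low. Trav14n-3 was at 6.14 CPM in Ctrl replicate 3 and at 0.928 to 1.56 CPM in the other 5 libraries.

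The groups of the other 3 Trav segments of highest mean level overlapped. Trav6-3 was at 2.59, 3.02 and 2.17 CPM in Ctrl and at 2.15, 2.76 and 2.89 CPM in cKO, though only 13.8% of its 75-base stretches are unique to it. Trav13-1 was at 2.32, 2.70 and 2.64 CPM in Ctrl and at 1.53, 1.95 and 2.55 CPM in cKO. Trav7-4 was at 2.85, 2.18 and 1.21 CPM in Ctrl and at 1.6, 1.14 and 1.53 CPM in cKO. Their limma adjusted p-values were all 0.99998. Trav3-1, the Trav segment whose groups did not overlap, was at 1.01, 1.69 and 1.23 CPM in Ctrl and at 0.763, 0.523 and 0.822 CPM in cKO (log2 fold change -0.43, SE 0.398, limma adjusted p = 0.99998, and 0.383 with the block).

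Of the 18 Trbv segments, the 5 known for iNKT receptors took most of the Trbv reads in both groups. Trbv13-1, Trbv13-2, Trbv13-3, Trbv1 and Trbv29 together took 83.0 ± 1.69% of Trbv reads in Ctrl and 84.3 ± 2.25% in cKO (SD, n = 3), with a range over the libraries of 81.2% to 86.9%. These 5 were chosen as iNKT segments, not by their rank here. Trbv12-2, outside that choice, held 5.34% to 7.99% in single libraries. Its mean share was 7.55 ± 0.474% in Ctrl and 6.62 ± 1.15% in cKO. That was above Trbv13-3 in Ctrl (7.15 ± 0.303%) and below it in cKO (8.14 ± 1.99%). The 12 segments under 10 CPM shared 9.46 ± 1.51% in Ctrl and 9.07 ± 1.12% in cKO.

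Trbv13-2 (ENSMUSG00000076469, chromosome 6, 41121396 to 41121832) was the most used. It took 29.4%, 29.9% and 30.9% of Trbv reads in Ctrl and 30.2%, 29.6% and 33.4% in cKO. The Trbv13 family as a whole took 49.3%, 51.7% and 50.2% in Ctrl and 51.7%, 48.9% and 55.2% in cKO. The groups overlapped in both shares, and cKO replicate 3 was the highest library in each (family difference 1.54 percentage points, exact permutation p = 0.6, adjusted p = 0.889).

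Trbv1 took 21.9%, 22.8% and 19.4% in Ctrl and 22.0%, 21.9% and 21.2% in cKO (exact permutation p = 0.8, adjusted p = 0.889). Trbv13-1 took 13.1%, 14.5% and 11.9% in Ctrl and 14.6%, 12.4% and 11.3% in cKO (exact permutation p = 0.8, adjusted p = 0.889). For both, the spread between replicates of a group exceeded the difference between groups. Trbv29 took 10.01%, 8.81% and 15.0% in Ctrl and 9.56%, 11.9% and 10.6% in cKO (exact permutation p = 0.9, adjusted p = 0.9). Trbv13-3 took 6.80%, 7.30% and 7.34% in Ctrl and 7.0%, 6.98% and 10.4% in cKO (exact permutation p = 0.8, adjusted p = 0.889). A single library stood out for each of these, Ctrl replicate 3 for Trbv29 and cKO replicate 3 for Trbv13-3.

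**Figure D3:**
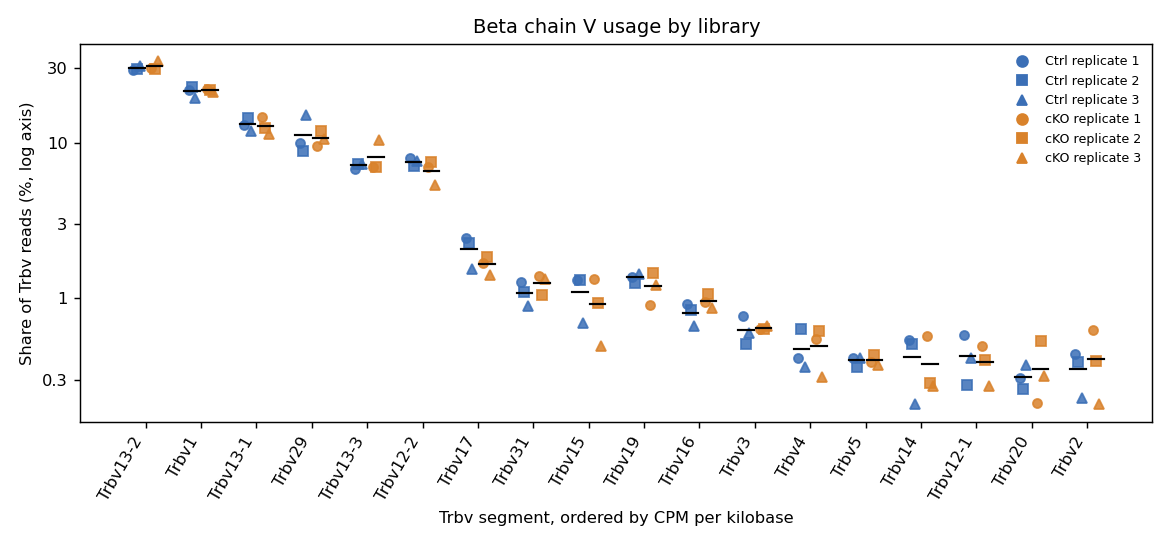
Share of all Trbv reads (vertical axis, percent, log axis) taken by each of the 18 beta V segments (horizontal axis, ordered by CPM per kilobase). Points are libraries, blue for Ctrl and orange for cKO with a shape per replicate, and black bars are means of 3 libraries; the order of the leading segments is led by Trbv13-2 and Trbv1 in both groups.

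Per kilobase of exon the order was Trbv13-2 (357.9 CPM per kilobase, mean of 6 libraries), Trbv1 (205), Trbv13-1 (140.2), Trbv29 (123.5), Trbv13-3 (90.0), Trbv12-2 (72.6) and Trbv17 (19.6), with the others at 11.2 or less. The ranges over libraries of Trbv13-2 (308.9 to 434.8), Trbv1 (176.4 to 224.5) and Trbv13-1 (124 to 161.4) were separate from each other. Those of Trbv13-1 and Trbv29 overlapped, as did those of Trbv29 and Trbv13-3 and of Trbv13-3 and Trbv12-2. A gap then separated Trbv12-2, never below 61.3 CPM per kilobase, from Trbv17, never above 23.3.

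In CPM, a share of all reads of the library, the leading beta V segments were somewhat higher in cKO, without passing the test. Trbv13-2 was at 105, 114.3 and 117.6 CPM in Ctrl and at 122.2, 123.2 and 147.8 CPM in cKO. Every cKO library was above every Ctrl library, with a log2 fold change of 0.22 (95% interval -0.03 to 0.47, limma adjusted p = 0.983, and 0.346 with the block), or 0.13 without cKO replicate 3. Trbv1 was at 78.2, 87.1 and 73.6 CPM in Ctrl and at 89.2, 91.3 and 93.6 CPM in cKO, with a log2 fold change of 0.20 (95% interval -0.02 to 0.42, limma adjusted p = 0.923). Trbv13-3 was at 24.3, 27.9 and 27.9 CPM in Ctrl and at 28.4, 29.0 and 46.1 CPM in cKO. Its groups were separate by a small margin except for cKO replicate 3, and its log2 fold change was 0.33 (95% interval -0.15 to 0.80, limma adjusted p = 0.99998), or 0.10 without that library.

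Trbv13-1 was at 46.6, 55.4 and 45.4 CPM in Ctrl and at 59.1, 51.5 and 50.01 CPM in cKO, with overlap. Trbv29 was at 35.7, 33.7 and 56.9 CPM in Ctrl and at 38.7, 49.7 and 46.8 CPM in cKO, with the highest of the 6 in Ctrl replicate 3. The summed level of all Trbv segments was 356.8, 382.6 and 380 CPM in Ctrl and 405.3, 416.5 and 442.4 CPM in cKO. These sums did not overlap either, and the cKO mean was 113% of the Ctrl mean. Per 100 reads of the beta constant genes the Trbv reads numbered 40.6 ± 2.71 in Ctrl and 39.5 ± 3.00 in cKO (SD, n = 3), which overlapped.

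The 12 Trbv segments under 10 CPM had a median log2 fold change of 0.13, beside a median of 0.20 in the 5 iNKT segments. Of the 12, 9 were higher and 3 lower in cKO, beside 41.0% higher over all tested genes. Trbv16 was at 3.27, 3.25 and 2.51 CPM in Ctrl and at 3.85, 4.43 and 3.85 CPM in cKO, with no overlap. Trbv5 was at 1.397 to 1.586 CPM in Ctrl and 1.595 to 1.808 CPM in cKO. Its groups were apart by less than the worth of 1 read. Trbv31, the segment that lies downstream of the constant genes on the opposite strand, was at 4.55, 4.19 and 3.38 CPM in Ctrl and at 5.65, 4.40 and 5.92 CPM in cKO. None of these passed, with limma adjusted p-values of 0.99998.

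The beta constant genes Trbc1 and Trbc2 lie one behind the other on chromosome 6, each after its own D and J segments. Trbc1 (ENSMUSG00000076490) was at 414.3, 417.4 and 460 CPM in Ctrl and at 483.6, 487.4 and 593.8 CPM in cKO. All cKO libraries were above all Ctrl libraries, and the log2 fold change was 0.27 (95% interval 0.02 to 0.53, unadjusted p = 0.0402, limma adjusted p = 0.761, and 0.121 with the block). Trbc2 (ENSMUSG00000076498) was at 439.6, 483.4 and 554.2 CPM in Ctrl and at 488.1, 537.6 and 633.3 CPM in cKO, with overlap between groups but a higher value in cKO in each of the 3 replicate pairs. Its log2 fold change was 0.17 (95% interval -0.15 to 0.48, limma adjusted p = 0.99998), 0.0634 without cKO replicate 3, 0.0870 without Ctrl replicate 1, and 0.25 without either Ctrl replicate 3 or cKO replicate 1. Without cKO replicate 3 that of Trbc1 was 0.17.

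Trbc1 took 46.7 ± 1.62% of the reads of both constant genes in Ctrl and 48.6 ± 1.12% in cKO (SD, n = 3; exact permutation p = 0.3, adjusted p = 0.889). The values in single libraries were 48.5%, 46.3% and 45.4% in Ctrl and 49.8%, 47.6% and 48.4% in cKO, higher in cKO in each pair. The 2 genes are near copies: 65.4% of the 75-base stretches of Trbc1 and 62.3% of those of Trbc2 are unique among receptor genes, so how reads were divided between them is uncertain.

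The number of alpha constant reads relative to beta constant reads was lower in every cKO library than in every Ctrl library. There were 186.3, 173.7 and 184.9 Trac reads per 100 Trbc reads in Ctrl and 139.1, 146.9 and 164.3 in cKO. The means were 181.6 ± 6.88 and 150.1 ± 12.9 (SD, n = 3), a difference of -31.5. It was -37.0 in replicates 1 and 2 alone and between -38.6 and -26.0 when any single library was left out. This ratio was chosen after the values were seen and is given with no test. The summed level of all alpha and beta segments was 3153 ± 269 CPM in Ctrl and 3286 ± 476 CPM in cKO (exact permutation p = 0.7, adjusted p = 0.889).

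In the joining segments of both loci 1 library stood apart. All 14 annotated Trbj segments had values, with means from 2.48 to 12.6 CPM. Their summed level was 84.3, 89.9 and 100.2 CPM in Ctrl and 91.3, 101 and 60.02 CPM in cKO. Replicate 3 of cKO was the lowest of the 6 libraries in 11 of 14 Trbj and in 11 of 15 Traj segments, but in only 2 of 18 Trbv and 5 of 26 Trav.

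Per 100 reads of the constant genes there were 9.87, 9.98 and 9.88 Trbj reads in Ctrl and 9.40, 9.86 and 4.89 in cKO. For alpha there were 2.70, 3.08 and 2.59 Traj reads per 100 Trac reads in Ctrl and 3.00, 3.20 and 1.64 in cKO. Apart from cKO replicate 3 the beta ratio thus varied little, and Ctrl replicate 3, the other library with many genes at 0, was not low. All 3 cKO values of the beta ratio lay below the Ctrl values, the nearest by a small margin. The mean difference of -1.86 was -0.28 without cKO replicate 3. What sets this library apart was not tested.

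**Figure D4:**
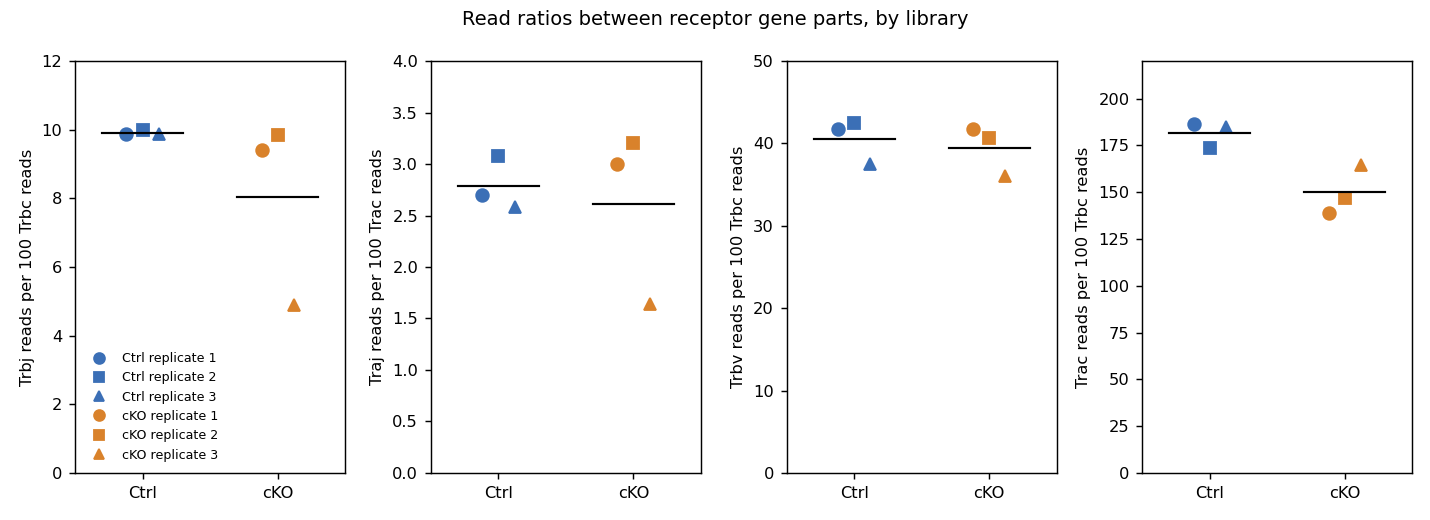
Ratios of reads between parts of the receptor genes (vertical axes, reads per 100 constant reads) in Ctrl and cKO (horizontal axes). Points are libraries with a shape per replicate and black bars are means of 3 libraries; cKO replicate 3 is low in the 2 joining ratios, and the groups are apart in Trac per 100 Trbc reads and, by a small margin for cKO replicate 2, in Trbj per 100 Trbc reads.

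Trbj1-5 was the highest joining segment of the beta locus per kilobase of exon (252.7 CPM per kilobase), followed by Trbj2-7 (198.4) and Trbj1-3 (188), with overlapping ranges over libraries. Trbj1-5 was at 13.0, 14.2 and 13.4 CPM in Ctrl and at 12.7, 14.8 and 7.75 CPM in cKO. Trbj1-3 was at 9.60, 10.7 and 10.6 CPM in Ctrl and at 11.4, 13.0 and 5.61 CPM in cKO. Trbj2-7 was at 7.82, 10.6 and 12.2 CPM in Ctrl and at 9.26, 9.87 and 6.24 CPM in cKO. Replicates 1 and 2 of cKO lay above the Ctrl libraries for Trbj1-3 and replicate 3 far below, and the same order held for Trbj1-4 (means 9.40 and 9.15 CPM) but not for Trbj1-6 (9.33 and 8.45 CPM).

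Both clusters of joining segments were in use. The Trbj1 cluster took 63.4 ± 3.27% of Trbj reads in Ctrl and 64.1 ± 3.83% in cKO (SD, n = 3), with 59.97% in cKO replicate 3. Trbj2-2, whose groups did not overlap, was at 2.63 to 2.91 CPM in Ctrl and 1.53 to 2.53 CPM in cKO (log2 fold change -0.29, SE 0.381, limma adjusted p = 0.99998). The D segments Trbd1 and Trbd2, exons of 12 and 14 bases, were read at 2.35 and 3.67 CPM on average. Trbd2 was at 2.20, 3.28 and 3.89 CPM in Ctrl and at 3.47, 3.97 and 5.18 CPM in cKO, higher in each pair but overlapping (limma adjusted p = 0.99998). Trbd1 was at 2.11, 1.72 and 2.81 CPM in Ctrl and at 2.08, 2.93 and 2.42 CPM in cKO.

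Gamma chain genes, whose products form the receptor of gamma-delta T cells, were read in every library. They can also be rearranged and transcribed in cells with an alpha-beta receptor. Trgv2 (ENSMUSG00000076754) was at 70.3, 82.4 and 103.5 CPM in Ctrl and at 61.5, 77.7 and 91.9 CPM in cKO. Each pair was lower in cKO, but replicates differed more than groups, and the log2 fold change was -0.15 (95% interval -0.61 to 0.31, limma adjusted p = 0.99998). Trgj1 was at 3.95, 3.44 and 4.80 CPM in Ctrl and at 1.53, 3.90 and 3.51 CPM in cKO. Trgj2 was at 1.37, 1.56 and 1.70 CPM in Ctrl and at 0.832, 1.52 and 0.999 CPM in cKO. The 3 summed to 91.0 ± 17.4 CPM (Ctrl) and 81.1 ± 16.4 CPM (cKO; SD, n = 3; exact permutation p = 0.5, adjusted p = 0.889).

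The 10 gamma chain genes with other names were also all lower in cKO (median log2 fold change -0.33), and none passed the limma threshold. This rested in part on single libraries: without Ctrl replicate 3 the median was -0.07 with 3 of 10 higher, and without cKO replicate 1 it was -0.11 with 2 of 10 higher. In 3 of the 10, Tcrg-V4, Tcrg-V3 and Tcrg-C3, the cKO values lay below the Ctrl values without overlap, as in 7.1% of all tested genes. The constant gene Tcrg-C2 was at 181.8, 194.5 and 267.6 CPM in Ctrl and at 131.4, 188 and 233.9 CPM in cKO. Tcrg-V4, a V segment named here after its values were seen, was the one gamma gene called with the block, which called 2.87% of all tested genes. It was at 44.2, 48.7 and 54.9 CPM in Ctrl and at 29.2, 30.6 and 33.4 CPM in cKO. The groups were well apart, with a log2 fold change of -0.65 (SE 0.117, limma adjusted p = 0.101, and 0.0132 with the block), and DESeq2 called it as well while edgeR without the block did not. Beside these values, 3 of 4 gamma-delta T cell markers that are not receptor genes were read, with a sum of 12.9 to 53.1 CPM in Ctrl and 25.3 to 52.7 CPM in cKO. Among them Cd163l1 was at 8.65, 13.8 and 20.8 CPM in Ctrl and at 21.5, 26.6 and 30.1 CPM in cKO, and passed with the block (limma adjusted p = 0.0272 with it, 0.629 without). The other markers read did not pass and overlapped between groups. Sox13 was at 3.45, 2.40 and 30.9 CPM in Ctrl and at 2.84, 6.02 and 20.2 CPM in cKO. Blk was at 0.715 to 1.30 CPM in Ctrl and 0.936 to 2.35 CPM in cKO. The part of other cells in the gamma chain reads was not tested.

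**Figure D5:**
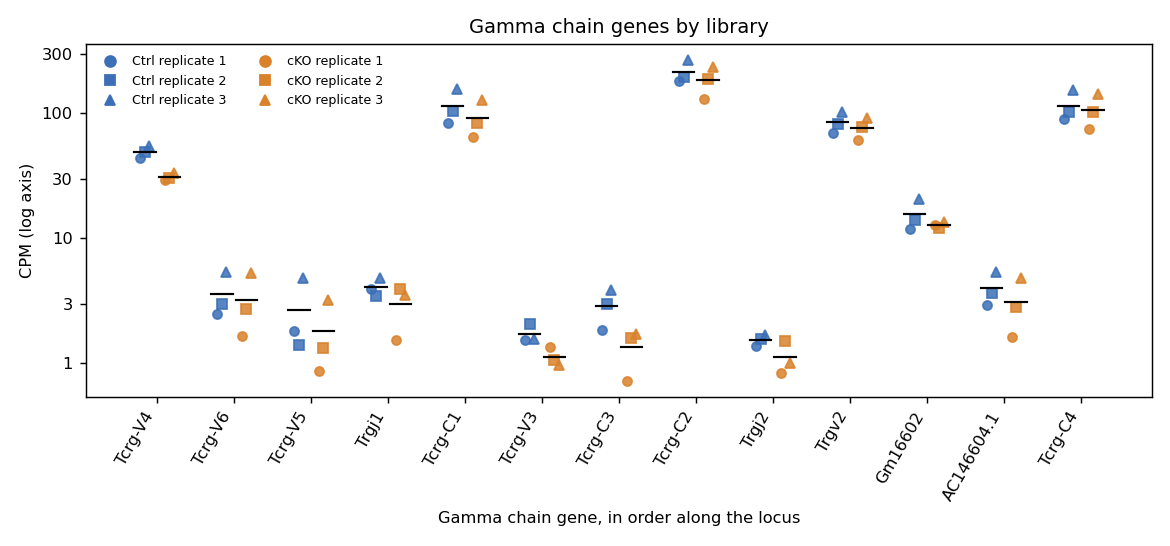
CPM (vertical axis, log axis) of the 13 gamma chain genes with values, in order along the locus (horizontal axis). Points are libraries, blue for Ctrl and orange for cKO with a shape per replicate, and black bars are means of 3 libraries; the cKO mean is below the Ctrl mean for each gene, with separate groups in Tcrg-V4, Tcrg-V3 and Tcrg-C3.

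The receptor reaches the cell surface with the CD3 proteins and signals through kinases and adaptors, and 30 of a list of 32 genes of this pathway had values. None passed without the block, and 3 had an unadjusted p under 0.05 (Fyn, Cd4 and Cd28, beside 6.02% of all tested genes). Of the 30, 17 were higher in cKO, beside 41.0% of all tested genes, and the median log2 fold change was 0.07. With the block 2 of 30 passed, each higher in cKO, beside 2.87% of all tested genes. Fyn, a kinase that phosphorylates the CD3 chains, was at 502.5, 537.5 and 583.9 CPM in Ctrl and at 679.7, 754.2 and 743 CPM in cKO (log2 fold change 0.42, limma adjusted p = 0.0144 with the block and 0.173 without). The coreceptor Cd4 was at 111.9, 122.1 and 129.5 CPM in Ctrl and at 143.9, 194.5 and 189.1 CPM in cKO (log2 fold change 0.52, limma adjusted p = 0.0169 with the block and 0.325 without).

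The CD3 genes themselves overlapped between groups. Cd3e was at 1293, 1390 and 1479 CPM in Ctrl and at 1126, 1157 and 1358 CPM in cKO. Cd3g was at 1075, 1068 and 1243 CPM in Ctrl and at 880.4, 863.1 and 1203 CPM in cKO. Both were lower in cKO in each pair, as was not the case for Cd3d, at 632.9, 623.4 and 688.4 CPM in Ctrl and 630.1, 666.4 and 935.1 CPM in cKO. Cd247, the zeta chain, was at 199.8, 168.3 and 225.3 CPM in Ctrl and at 208.2, 209.2 and 254.6 CPM in cKO, higher in each pair. Their limma adjusted p-values were all 0.99998.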

How the data were processed

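The submitters' processing notes name Trimmomatic 0.33, STAR 2.5.2, HTSeq 0.6.1, edgeR and build mm10, with no role or setting, and the treatment of reads that match several genes is not given in the sources used here. The authors deposited 1 table with a CPM value per gene and library. These values came out as whole reads in every library (100% within 0.01 reads), so read counts were recovered from them. Per the file headers, a log2 fold change was deposited too, with a likelihood-ratio score, p-values, adjusted p-values and exon widths. The table's WT and KO columns were taken as Ctrl and cKO.

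The members, gene lists and tests were chosen with earlier results of these data known. Genes whose mean reached 1 CPM were tested with limma 3.58.1 (R 4.3.3) on log2(CPM + 1), with trend and robust moderation and Benjamini-Hochberg adjustment over all 15691 tested genes at 0.05. Every fold change is on that scale, which understates changes of low genes. Shares and sums were compared by exact permutation over libraries, adjusted over 10 tests. Members were named as follows: constant genes, the iNKT segments and, per class, the 5 of highest mean CPM, with others named after their values were seen. Deviations from group means of same-numbered libraries correlated at 0.855, 0.687 and 0.924. Such deviations cancel within a group, and both replicate 3 libraries stand apart. The correlations therefore cannot show that replicates 1 and 2 are paired across groups. The labels do not state a pairing, so the fit without the block led and a fit with the replicate block was the alternative. A pair here means the Ctrl and cKO libraries of the same number. Other alternatives were other pseudocounts, filters, TMM scaling, edgeR 4.0.16, DESeq2 1.42.0 and fewer libraries. Lengths are of merged exons in GENCODE M21 (GRCm38) where the gene's start and end match the table, and the table's width otherwise. Sequences are from the M21 transcripts. Whether the counting used strand is not given in the sources used here, so a gene and one antisense to it cannot be told apart. Reads carry no molecular identifiers, so depth describes counting error only.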

Additional observations from a re-analysis of the deposited data

How the results depend on the processing

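No member passed under any of the settings run, including the replicate block, edgeR with the replicate block, DESeq2 (which gave 32 members an adjusted p) and each single library left out. The count over all genes was 104; it was 451 with the replicate block, 41 with edgeR, 469 with edgeR and the replicate block, 554 with DESeq2, 296 in replicates 1 and 2, and 14 to 97 with 1 library left out, the lowest without Ctrl replicate 2. Apart from Fyn, Cd4, Cd163l1, Il2rb and Tcrg-V4, given above, the block changed no call among the genes named. For the shares and sums, the sign-flip test over the 3 pairs cannot give a p under 0.25.

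Some log2 fold changes of named segments changed sign. Trac was 0.0106 with edgeR and 0.0156 with DESeq2. In replicates 1 and 2 alone, Traj12 was 0.0772, Trav6-3 -0.14, Trbj1-3 0.24, Trbj1-4 0.26, Trbj1-5 0.0115, Trbj1-6 0.13 and Trbj2-7 0.0649. With 1 library left out the ranges were -0.23 to 0.0606 for Trac, -0.36 to 0.0327 for Traj12, -0.28 to 0.84 for Trav6-1, -0.0829 to 0.0972 for Trav6-3, -0.32 to 0.22 for Trbj1-3, -0.21 to 0.19 for Trbj1-4, -0.41 to 0.0186 for Trbj1-5, -0.34 to 0.0860 for Trbj1-6, -0.00787 to 0.36 for Trbv29 and -0.28 to 0.0025 for Trgv2.

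Differences in share of Trbv reads, in percentage points, turned in replicates 1 and 2 alone for the Trbv13 family (-0.154), Trbv1 (-0.374), Trbv29 (1.35) and Trbv13-3 (-0.0633). With 1 library left out they ran from -0.0742 to 3.05 for the Trbv13 family, -0.222 to 1.70 for Trbv13-2, -0.639 to 1.06 for Trbv1, -1.33 to 0.307 for Trbv13-1, -1.79 to 1.29 for Trbv29 and -0.160 to 1.57 for Trbv13-3. The share of Traj18 ran from -0.386 to 6.20 points, the alpha and beta sum from -133.2 to 325.4 CPM, both lowest without cKO replicate 3, and Traj reads per 100 Trac reads from -0.465 to 0.315, against 0.216 in replicates 1 and 2 alone. The cause of these turns was not tested.

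Of the members, 60 had a mean under 5 CPM. Over all members tested, the 95% intervals of log2 fold changes, without the block and unadjusted, reached 0.22 to 1.71 to either side. Leaving out 1 library moved the log2 fold change by over 1.5 times, or turned it, in 27 of the 28 named segments, all but Trbv1. The planned share of Trav11 in Trav reads was not run, since Trav11 was not analysed here.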
